A study of Homo sapiens with 2 samples.

Results

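The DNA replication machinery was described here through 50 genes, listed by symbol: the origin recognition and licensing factors, the MCM helicase and the factors that switch it on, the replicative polymerases, the sliding clamp with its loader, the single-strand binding protein RPA, the Okazaki fragment enzymes and 3 genes of deoxynucleotide supply. Members were taken by symbol through GEO's annotation of the platform. The list of symbols was drawn up with earlier results of these data known. All 50 genes were found, out of 19775 genes with a probe set paired with 1 gene, and they held 93 probe sets.

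The values come from 2 Affymetrix expression arrays of KYSE170-luc, a human esophageal squamous carcinoma line that carries luciferase, per the series title. One array was hybridised with RNA from cells transfected with a SOX17 expression plasmid, and the other with RNA from cells transfected with the empty vector, both collected 12 h after transfection. SOX17, an HMG-box transcription factor, acts in the formation of endoderm and blood vessels, and the comparison asks how transcript levels differ when it is introduced. There was 1 array per group, so no value has a replicate, no p-value was computed, and every difference below is one between these 2 arrays. Transfection of a plasmid reaches a part of the cells, and no source used here gives that share. In RNA from whole cultures, fewer cells of a kind and less RNA per cell cannot be told apart.

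Eukaryotic DNA is copied from many origins. In G1 the origin recognition complex, with CDC6 and CDT1, loads the MCM2-7 helicase onto DNA, and in S phase the kinase CDC7 with its partner DBF4, together with CDC45, MCM10 and the GINS complex, turns it into a running fork. DNA polymerase alpha with primase then lays primers, RFC loads the PCNA clamp, polymerases delta and epsilon extend, and FEN1 and LIG1 process and seal the lagging strand. Many of these genes are transcribed under the control of E2F factors at the passage from G1 to S, and their mRNAs are abundant in dividing carcinoma cells.

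Each gene was represented by its brightest probe set. It was taken as measured if this probe set reached an intensity of 95, the 60th percentile of all values, in both samples. Every log2 ratio has the SOX17 array on top, so a value above 0 means more signal there than on the empty vector array. SOX17 itself did not reach that floor. Its probe sets read 83.8 and 6.5 on the SOX17 array, against 4.5 and 19.1 on the empty vector array, and no source used here says whether the plasmid carries their target sequence, so the labels are not checked by them. Of 10 squamous epithelial markers 7 had a probe set paired with 1 gene, KRT5 and KRT14 among them, and all 7 were measured, while 0 of 4 leukocyte and 0 of 5 endothelial markers with a probe set were. Of 6 fibroblast markers 1 was measured, COL1A1. On 24 of 24 probe sets the spiked poly-A controls, added ahead of the labelling step, read higher on the SOX17 array (median log2 ratio 0.57), and the part of this in the gene ratios was not tested. The 3′ over 5′ intensity of ACTB was 10.4 on the SOX17 array and 11.6 on the empty vector array. For GAPDH it was 1.18 on the SOX17 array and 1.16 on the empty vector array. Its part in the gene ratios was not tested either.

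All 50 replication genes were measured on both arrays, and 38 of them had a log2 ratio within 0.32 of 0. Ratios lay between -0.64 and 0.54 on the log2 scale, with a median of 0.10, while the median of all 10034 measured genes was 0.03. On the SOX17 array 33 of the 50 genes were higher and 17 were lower than on the empty vector array. That is 66.0% above 0, against 54.6% of all measured genes. A ratio of 1.5-fold or more above the empty vector array was reached by 0 members, and by 3.78% of all measured genes. A ratio of 1.5-fold or more below it was reached by 2 members (4%), LIG1 and RFC1, and by 3.19% of all measured genes. The share of called members was thus close to the share in the whole table. No member reached a 2-fold difference in either direction, a size that 0.419% of all genes reached upward and 0.329% downward. At a lower threshold, a log2 ratio of 0.32 in either direction, 6 members were higher and 6 lower, or 12% each, against 15.0% of all measured genes higher and 13.0% lower.

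**Figure D1:**
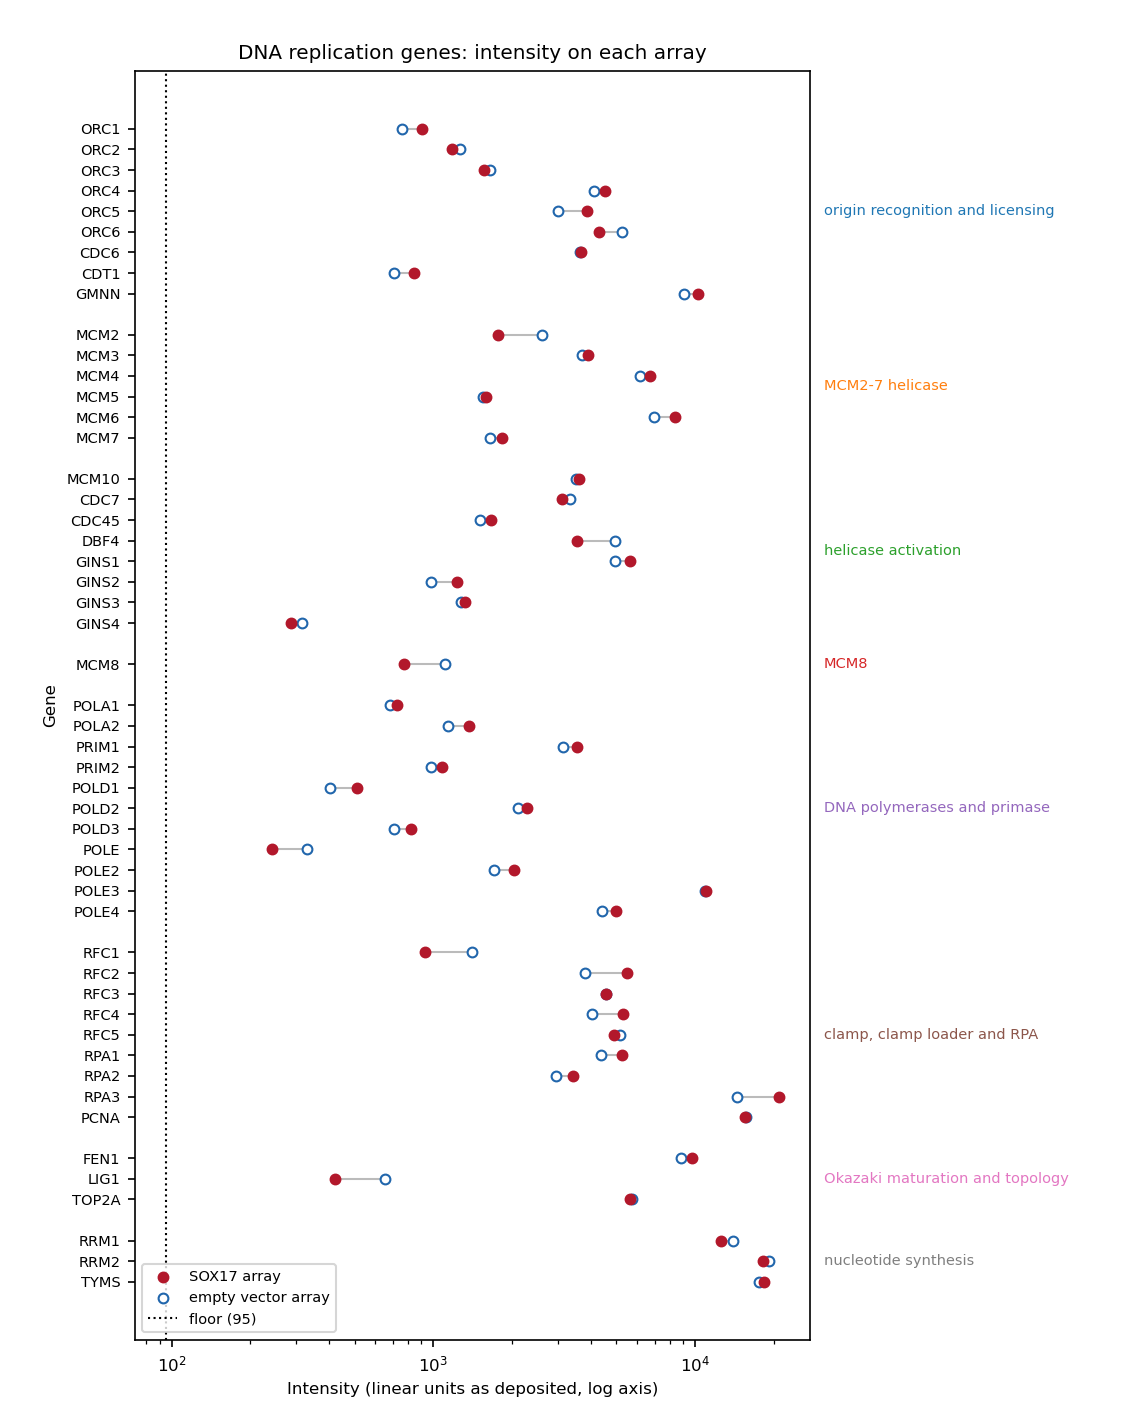
Intensity of each of the 50 replication genes on the SOX17 array (filled red) and on the empty vector array (open blue), on a log axis in linear units as deposited, with genes grouped by role and the dotted line at the floor of 95. Each gene is shown by its brightest probe set; the distance between its points is the difference of interest, since levels of different probe sets cannot be compared. Most pairs of points nearly coincide, and the widest gaps are those of LIG1, RFC1, MCM2, RPA3, RFC2 and MCM8.

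As a stand-in for the error within the arrays, the disagreement between probe sets was read from the 4574 genes that had more than 1 measured probe set. For a single log2 ratio it came to an SD of 0.17 among the highest tertile of genes, 0.26 among the middle tertile and 0.35 among the lowest tertile. It leaves out the spread between cultures, which these arrays cannot give. It also holds differences between the probe sets themselves, and it misses any bias that both share. Of the replication genes 30 lay in the highest tertile, 17 in the middle and 3 in the lowest. Of the members 29 had a ratio within 1 such SD of 0, 12 lay between 1 and 2 SD, and 9 lay beyond 2 SD. These 9 were RPA3, RFC2, RFC4 and ORC5 on the higher side and MCM2, DBF4, LIG1, RFC1 and MCM8 on the lower side. They are 18% of the members, against 9.90% of all measured genes beyond 2 SD. The 9.90% covers genes of every level and is not matched to the levels of the members. In the highest tertile the ratios of the 30 members spread across genes with an SD of 0.25, and those of all genes there with 0.24. In the highest tertile of level alone, 0 of 30 members were at least 1.5-fold different in either direction, where 0.419% of all genes there were higher and 1.17% lower by that much.

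**Figure D2:**
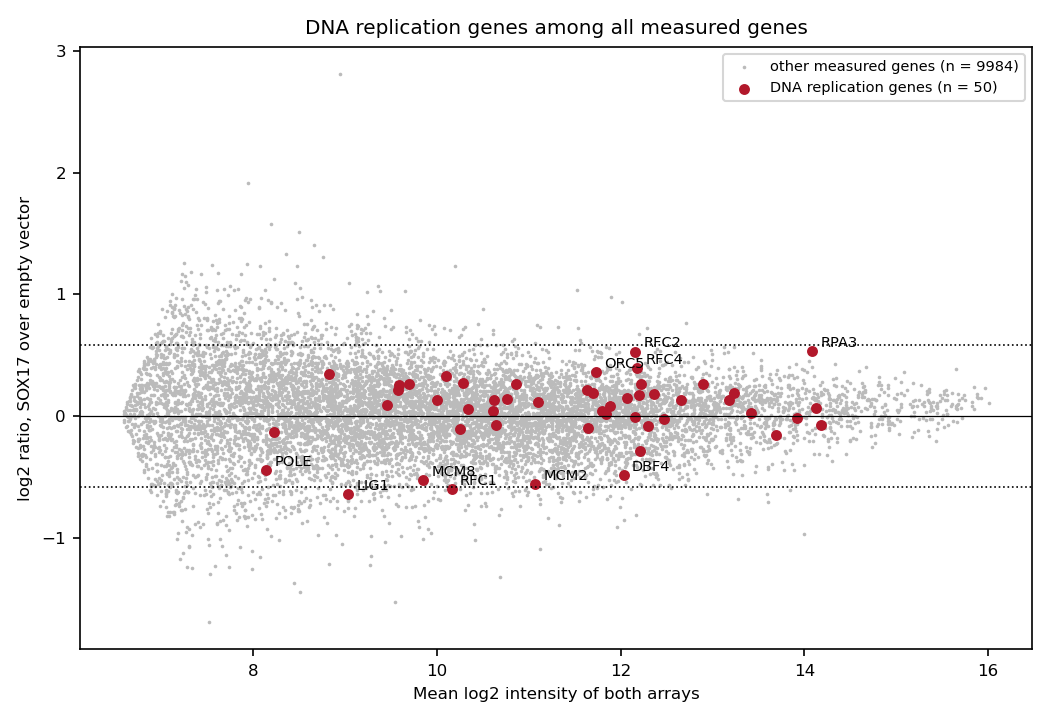
The log2 ratio (SOX17 over empty vector) against the mean log2 intensity of both arrays, for the 50 replication genes (red) and the 9984 other measured genes (grey), with dotted lines at 1.5-fold. LIG1 and RFC1 are the 2 replication genes that pass the lower line.

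Promoter sequence, which the choice of members did not use, was searched for E2F sites and 3 other motifs. In the 250 bases before the RefSeq gene start (build GRCh38.p14), 14 of 44 member promoters, or 31.8%, held an E2F site, searched on both strands as TTTCCCGC, TTTGGCGC, TTTCGCGC or TTTGCCGC. The same letters stood in 4.76% of the 8341 promoters of measured genes and in 2.79% of all 27305 promoters. The median GC content of the windows was 65.0% for members and 65.2% for measured genes. RefSeq listed more than 1 start for 10 of the 44, and the first listed was used. MCM4, MCM5, GINS4, POLD3, RPA2 and RPA3 had no entry. The sites are given here for members of each functional step, with the site in capitals and 8 bases on each side where the window allows, read 5′ to 3′ on the strand of the gene, so that GCGGGAAA, GCGCGAAA and GCGCCAAA are the same sites on the other strand. Where a promoter held several, the one nearest the start is given.
MCM3 (chr6:52284901-52284924, minus strand): atggtacgTTTCCCGCcaccgcgg
MCM6 (chr2:135876514-135876537, minus strand): caggtttgGCGCGAAAtctccagc
MCM7 (chr7:100101398-100101414, minus strand): gggcgacgTTTCGCGCc
CDT1 (chr16:88803746-88803769, plus strand): gggcgcccGCGGGAAAtttggcgg
GINS2 (chr16:85688970-85688993, minus strand): tcgccgtgGCGGGAAAacggcggc
POLA1 (chrX:24693773-24693796, plus strand): atcacaggGCGCCAAAcgcgcgtc
POLE (chr12:132687345-132687368, minus strand): gtgggagcGCGCCAAAtttctccc
PCNA (chr20:5126666-5126689, minus strand): cgtcagggGCGGGAAAaggcgtgc
RFC3 (chr13:33818086-33818109, plus strand): tggagctcGCGGGAAAacttgtct
LIG1 (chr19:48170443-48170466, minus strand): tcacccctTTTCCCGCcctcctcc
TYMS (chr18:657606-657629, plus strand): ggacggccGCGGGAAAaggcgcgc

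Among these promoters the sites sit from 174 bases before the start in MCM3 to 9 bases before it in MCM7. MCM6 held 4 sites and MCM7 held 2, while the others shown held 1 each. Overlapping matches count separately here, and in the MCM6 sequence a further match, TTTGGCGC, overlaps the capitals. The 14 genes with an E2F site had a median log2 ratio of 0.09, and the 30 without one also 0.09. A CCAAT box (CCAAT, either strand) stood in 56.8% of member promoters and 36.0% of those of measured genes. The 25 members with a CCAAT box had a median log2 ratio of 0.04, and the 19 without one of 0.13. A GC box (GGGCGG, either strand) stood in 68.2% of member promoters and 68.4% of those of measured genes. The 30 members with it had a median log2 ratio of 0.10, and the 14 without of 0.07. These medians are descriptions with no test. The SOX core ACAAT, on either strand, stood in 4 member promoters, those of GINS3, PRIM1, PRIM2 and RFC1, or 9.09%, against 14.7% of the promoters of measured genes. The 4 genes with it had a median log2 ratio of 0.09, as had the 40 without. Such matches describe letters in a window and are not evidence of binding.

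Origin recognition and licensing genes differed little between the arrays. Of 9 genes 6 were higher on the SOX17 array and 3 lower, with a median log2 ratio of 0.15. ORC5, a subunit of the origin recognition complex, read 3847.8 on the SOX17 array and 3002.6 on the empty vector array, a log2 ratio of 0.36, the largest of this group. Its other measured probe set gave 0.17. ORC1, the subunit whose protein level varies through the cell cycle, read 909.3 on the SOX17 array and 756.2 on the empty vector array (0.27), and ORC4 read 4535.2 on the SOX17 array and 4096.6 on the empty vector array (0.15, and 0.37 on its other probe set). These 3 subunits lay on the higher side on every measured probe set.

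The other subunits of the complex lay on the lower side. ORC6 read 4300.3 on the SOX17 array and 5256.9 on the empty vector array, a log2 ratio of -0.29 from a single probe set whose ID ends in _x_at, a suffix that marks probes shared with other transcripts. ORC2 read 1176.4 on the SOX17 array against 1264.8 on the empty vector array (-0.10, and -0.18 on its other probe set). ORC3 read 1564.3 on the SOX17 array against 1643.1 on the empty vector array (-0.07). The complex as a whole thus showed 3 subunits higher and 3 lower, none of them by 1.5-fold.

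CDT1, which brings the MCM helicase to origins, read 841.7 on the SOX17 array and 705.1 on the empty vector array (0.26 on a probe set ending in _x_at, and 0.20 on the other). Geminin (GMNN), the inhibitor of CDT1, read 10272.3 on the SOX17 array and 9033.9 on the empty vector array (0.19). The loader and its inhibitor therefore had ratios of the same sign and nearly the same size. CDC6, the other loading factor, read 3675.7 on the SOX17 array and 3642.8 on the empty vector array, and its probe sets gave ratios of 0.01 and -0.08.

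In the MCM2-7 helicase 5 of 6 subunits were slightly higher on the SOX17 array, and MCM2 was lower. MCM2 read 1766.6 on the SOX17 array and 2610.7 on the empty vector array, a log2 ratio of -0.56 (1.48-fold lower on the SOX17 array). MCM6 read 8384.4 on the SOX17 array and 6989.5 on the empty vector array (0.26), the highest ratio of the ring. MCM7 read 1821.8 on the SOX17 array and 1649.7 on the empty vector array, and its 2 probe sets gave 0.14 and 0.13. The 6 subunits form 1 ring in equal numbers. The SD of a single ratio at the level of MCM2 is 0.17, and no spread between cultures is known for it.

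MCM3 read 3894.6 on the SOX17 array and 3683.6 on the empty vector array (0.08). MCM5 read 1587.6 on the SOX17 array and 1544.2 on the empty vector array (0.04), with -0.09 on its other probe set. MCM4 had 4 measured probe sets, whose ratios ran from -0.31 to 0.17, and the brightest read 6743.4 on the SOX17 array against 6166.9 on the empty vector array (0.13). For MCM4 and MCM5 the sign depended on the probe set, and their means over probe sets were both -0.03. MCM2, MCM3 and MCM6 rest on 1 measured probe set each.

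MCM8, a relative of the replicative subunits that works with MCM9 in recombination repair, read 769.4 on the SOX17 array and 1109.9 on the empty vector array (-0.53). It rests on 1 measured probe set, and the other lay below the floor on both arrays. MCM8 and MCM2 were thus the only 2 of the 7 numbered MCM2 to MCM8 genes with a ratio below 0 on their brightest probe set.

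Of 8 genes that activate the helicase 5 were higher on the SOX17 array and 3 lower (median log2 ratio 0.05). DBF4, the regulatory subunit of the CDC7 kinase, had the lowest value. It read 3543.2 on the SOX17 array and 4961.2 on the empty vector array, a log2 ratio of -0.49 on its only probe set. The catalytic partner CDC7 read 3108.8 on the SOX17 array and 3321.4 on the empty vector array (-0.10). Both subunits of the kinase lay on the lower side, CDC7 within the SD of a ratio at its level.

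The GINS complex, part of the running helicase, was not uniform. GINS2 read 1233.2 on the SOX17 array and 981.4 on the empty vector array (0.33), and GINS1 read 5640.6 on the SOX17 array and 4962.9 on the empty vector array (0.18). GINS3 read 1325.3 on the SOX17 array against 1274.4 on the empty vector array (0.06, and 0.11 on its other probe set). GINS4, at 286.2 on the SOX17 array and 314.3 on the empty vector array, gave -0.14 and 0.02 on its 2 measured probe sets. No GINS gene reached 1.5-fold.

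CDC45, which joins MCM and GINS in the running helicase, read 1653.9 on the SOX17 array and 1507.7 on the empty vector array (0.13). MCM10, needed to start the helicase, had the most closely matching probe sets of all members with 3 of them. It read 3607.0 on the SOX17 array and 3514.6 on the empty vector array, and its ratios were 0.02, 0.03 and 0.04.

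The replicative polymerases and primase had 10 of 11 genes on the higher side, with a median log2 ratio of 0.17. Every one of the 4 genes of the polymerase alpha and primase complex, which makes the RNA and DNA primers, had a positive ratio. POLA2, its regulatory subunit, read 1373.5 on the SOX17 array and 1141.3 on the empty vector array (0.27). PRIM1, the catalytic primase subunit, read 3548.1 on the SOX17 array and 3118.4 on the empty vector array (0.19). PRIM2 read 1076.1 on the SOX17 array and 983.3 on the empty vector array (0.13). The catalytic polymerase subunit POLA1 read 727.5 on the SOX17 array and 682.4 on the empty vector array (0.09), the smallest ratio of the complex.

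Polymerase delta, the main lagging strand enzyme, showed the same sign in all 3 of its genes listed. POLD1, the catalytic subunit, read 509.6 on the SOX17 array and 402 on the empty vector array (0.34). POLD3 read 823.7 on the SOX17 array and 709.6 on the empty vector array (0.22), and POLD2 read 2288.3 on the SOX17 array and 2112.2 on the empty vector array (0.12). Each of the 3 rests on 1 measured probe set, and the ratio of POLD1 lay within the SD of 0.35 at its level.

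Polymerase epsilon, the leading strand enzyme, was split between its catalytic subunit and the rest. The catalytic subunit POLE read 241.6 on the SOX17 array and 329.4 on the empty vector array, a log2 ratio of -0.45 and the only value below 0 among the polymerase genes. POLE2 read 2032.4 on the SOX17 array and 1698.3 on the empty vector array (0.26), and POLE4 read 4989.2 on the SOX17 array and 4421.5 on the empty vector array (0.17, and 0.14 on its other probe set). POLE3, a histone-fold subunit, read 11049.8 on the SOX17 array and 10867.5 on the empty vector array (0.02), and its sign turned after quantile normalization (-0.02) and after loess (-0.01). POLE has 1 probe set, in the lowest tertile of level, where the SD of a ratio is 0.35.

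**Figure D3:**
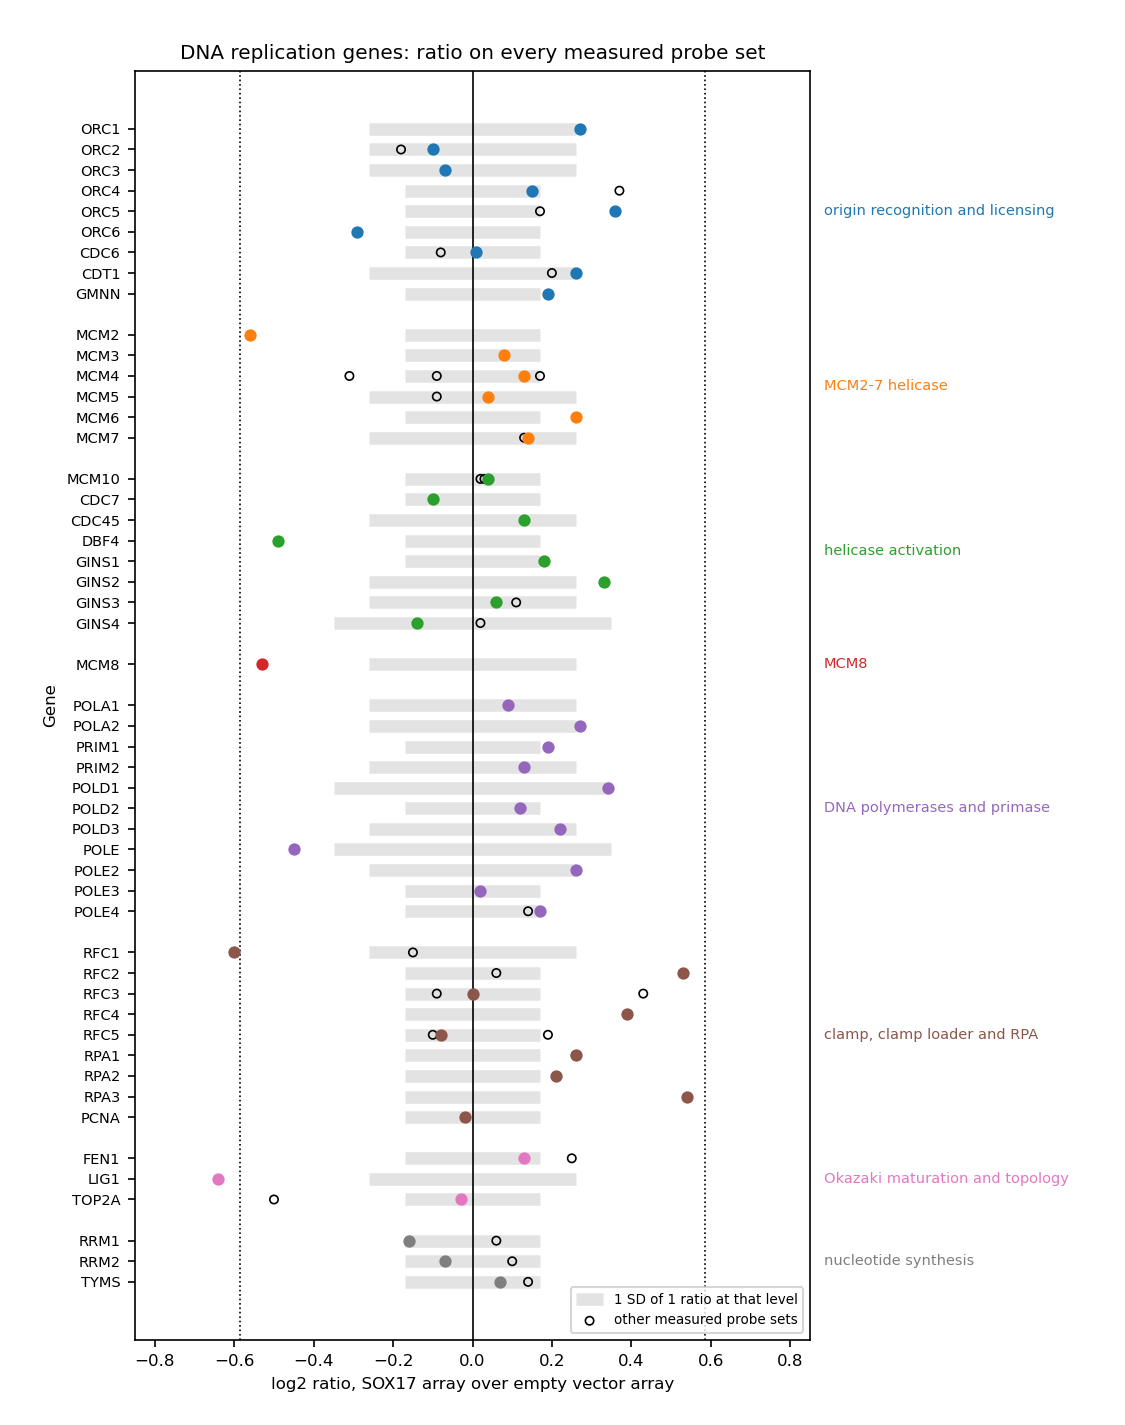
The log2 ratio (SOX17 over empty vector) for each replication gene, grouped by role. Filled points are the brightest probe set, open circles the other measured probe sets of the gene, grey bars 1 SD of a single ratio on either side of 0 at that level (0.17, 0.26 or 0.35) and dotted lines 1.5-fold; 10 of 11 polymerase and primase genes lie right of 0, and the widest disagreement within a gene is that of RFC3.

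The clamp, its loader and RPA together held the highest ratio of the machinery and the second lowest. PCNA, the clamp itself, read 15452.6 on the SOX17 array and 15665.4 on the empty vector array (-0.02). The 5 genes of the loader RFC had ratios of both signs. RFC2 read 5499.3 on the SOX17 array and 3808.3 on the empty vector array (0.53), but its other probe set read 2861.4 on the SOX17 array and 2748.5 on the empty vector array and gave 0.06. RFC4 read 5310.7 on the SOX17 array and 4045.5 on the empty vector array (0.39) on its only probe set.

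RFC1, the large subunit, read 930.3 on the SOX17 array and 1408.2 on the empty vector array, a log2 ratio of -0.60 (1.51-fold lower). This probe set has an ID that ends in _x_at. The other measured one read 584.6 on the SOX17 array and 646.6 on the empty vector array (-0.15), and the mean of both, -0.37, did not pass 1.5-fold. After quantile normalization (-0.57) and loess (-0.58) the brightest probe set did not pass it either. The sign was below 0 on both measured probe sets.

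RFC3 and RFC5 lay close to 0. RFC3 read 4549.9 on the SOX17 array and 4565.1 on the empty vector array, while its probe sets ranged from -0.09 to 0.43, the widest range within a member (0.52). The value of 0.43 came from its dimmest probe set, at 146 on the SOX17 array and 108 on the empty vector array. RFC5 read 4895.1 on the SOX17 array against 5187.7 on the empty vector array (-0.08), with 3 probe sets between -0.10 and 0.19.

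For the top 2 and bottom 2 members by ratio among those with a promoter entry, the promoters are printed here, to set the upstream sequences beside these values. Each is the 250 bases before the RefSeq gene start in GRCh38.p14, 5′ to 3′ on the strand of the gene, with E2F sites, CCAAT boxes, GC boxes and SOX cores in capitals. In LIG1 the E2F site, 114 bases before the start, overlaps a GC box.
RFC2 (chr7:74254400-74254649, minus strand): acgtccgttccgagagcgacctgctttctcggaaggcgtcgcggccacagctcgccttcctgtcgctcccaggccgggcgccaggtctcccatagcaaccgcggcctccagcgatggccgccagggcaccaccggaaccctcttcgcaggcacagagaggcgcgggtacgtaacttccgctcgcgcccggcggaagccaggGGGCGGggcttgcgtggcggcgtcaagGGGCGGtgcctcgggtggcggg
RFC4 (chr3:186806483-186806732, minus strand): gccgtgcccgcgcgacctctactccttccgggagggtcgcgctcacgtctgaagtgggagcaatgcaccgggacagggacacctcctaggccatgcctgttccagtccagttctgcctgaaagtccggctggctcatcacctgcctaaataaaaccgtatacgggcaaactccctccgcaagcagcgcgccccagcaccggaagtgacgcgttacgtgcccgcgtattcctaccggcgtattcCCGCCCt
LIG1 (chr19:48170345-48170594, minus strand): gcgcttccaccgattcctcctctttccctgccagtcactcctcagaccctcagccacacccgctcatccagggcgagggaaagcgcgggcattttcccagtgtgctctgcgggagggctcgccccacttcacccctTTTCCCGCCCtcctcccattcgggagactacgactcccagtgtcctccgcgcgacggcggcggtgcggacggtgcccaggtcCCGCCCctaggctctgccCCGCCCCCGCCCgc
RFC1 (chr4:39366363-39366612, minus strand): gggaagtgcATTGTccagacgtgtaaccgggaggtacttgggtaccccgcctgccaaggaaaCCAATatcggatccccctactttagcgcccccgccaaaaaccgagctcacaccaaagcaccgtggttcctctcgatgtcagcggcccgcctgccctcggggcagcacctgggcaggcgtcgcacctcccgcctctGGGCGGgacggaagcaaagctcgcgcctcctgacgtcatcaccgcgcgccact

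RFC2 and RFC4, with ratios of 0.53 and 0.39, held only GC boxes among the letters searched, 2 and 1 of them. LIG1, with a ratio of -0.64, held 1 E2F site and 4 GC boxes. RFC1 held 1 CCAAT box, 1 GC box and 1 SOX core, which reads ATTGT on the strand shown.

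RPA, the trimer that coats single-stranded DNA at the fork, was higher on the SOX17 array in all 3 subunits. RPA3, the smallest, read 20974 on the SOX17 array and 14472.7 on the empty vector array, a log2 ratio of 0.54 (1.45-fold), the highest of all 50 members. RPA1 read 5234.8 on the SOX17 array and 4359.7 on the empty vector array, and both of its measured probe sets gave 0.26. RPA2 read 3424.3 on the SOX17 array and 2953.4 on the empty vector array (0.21). The ratio of RPA3 was 0.48 after quantile normalization and after loess, and it rests on 1 probe set.

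Among the lagging strand and topology genes LIG1 had the lowest ratio of all members. LIG1, the ligase that joins Okazaki fragments, read 419.6 on the SOX17 array and 654 on the empty vector array, a log2 ratio of -0.64 (1.56-fold lower). It has 1 probe set, and it passed 1.5-fold under every scaling and floor tried. FEN1, the flap nuclease that acts just before the ligase, read 9689.9 on the SOX17 array and 8843.5 on the empty vector array (0.13, and 0.25 on its other probe set). The 2 enzymes of this step thus had ratios of opposite sign.

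TOP2A, the topoisomerase that untangles finished duplexes, gave different answers on its 2 measured probe sets. The brighter read 5624.2 on the SOX17 array and 5738 on the empty vector array (-0.03). The other read 2294.5 on the SOX17 array and 3243.4 on the empty vector array (-0.50). Their mean was -0.26, and no value here tells which probe set reports the transcript better.

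The genes of deoxynucleotide supply were alike on both arrays. RRM1 and RRM2, the subunits of ribonucleotide reductase, read 12504.7 and 18172.2 on the SOX17 array, against 13957 and 19094.9 on the empty vector array (log2 ratios of -0.16 and -0.07). Their other probe sets gave 0.06 and 0.10, so the sign was not shared. TYMS, the thymidylate synthase, read 18370.8 on the SOX17 array and 17505.1 on the empty vector array (0.07, and 0.14 on its other probe set). None of the 3 lay beyond the SD of 0.17 at this level.

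Agreement between probe sets can be read over the whole machinery. Of the 50 members 28 had a single measured probe set and 22 had several. Of these 22, 14 had ratios of 1 sign on every measured probe set (63.6%), where 48.6% of all 4574 genes with several did. In 11 of the 14 every probe set was above 0, and in 3 every one was below, ORC2, RFC1 and TOP2A. The median range within a member was 0.14. Over all 77 measured member probe sets, 51 lay above 0 and 26 below, with a median of 0.09. Of the 9 genes beyond 2 SD, MCM2, MCM8, DBF4, LIG1, RFC4 and RPA3 had no second measured probe set. The other 16 member probe sets, from 13 genes, were not measured. Of them 12 lay below the floor on both arrays. The intensities of all 16 ran from 4.3 to 126.8 on the SOX17 array and from 2.5 to 102.8 on the empty vector array.

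Gene length did not order the members. Spearman's rho between the log2 ratio and the length of the gene was -0.08 over the 50 members and -0.19 over 10024 measured genes. These are correlations across genes within 1 pair of arrays, given as a description.

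Genes around the machinery were read from 5 lists, chosen with earlier results of these data known. Of 17 measured genes of fork protection and the replication checkpoint 7 were above 0 and 10 below (median log2 ratio -0.02). On the brightest probe sets 0 were past 1.5-fold. Several of these genes had measured probe sets of both signs, and over all measured probe sets the ratios ran from -0.85 to 0.78. RECQL4, a helicase that acts in origin firing, read 410.1 on the SOX17 array and 603.4 on the empty vector array (-0.56). ETAA1, an activator of the kinase ATR, read 284.3 on the SOX17 array and 197.1 on the empty vector array (0.53), and RAD9A, of the checkpoint clamp, read 329.3 on the SOX17 array and 436.5 on the empty vector array (-0.41). ETAA1 and RAD9A rest on 1 measured probe set each, in the lowest tertile of level, where the SD of a ratio is 0.35. The checkpoint genes thus lay on both sides of 0. By the brightest probe set 41.2% were above it, against 66.0% of the replication genes and 54.6% of all measured genes.

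Of 19 other replication enzymes 14 were above 0 on the brightest probe set, with a median of 0.08, and 2 were higher by 1.5-fold or more. Several of the 14 had another measured probe set below 0, down to -0.39. Of all measured genes 54.6% were above 0 and 3.78% were higher by that much. RNASEH2B, a subunit of the nuclease that removes ribonucleotides from DNA, read 295 on the SOX17 array and 130.5 on the empty vector array (1.18), but its other probe set gave 0.22. POLD4, the small subunit of polymerase delta, read 341.1 on the SOX17 array and 174.1 on the empty vector array (0.97) on 1 measured probe set. Both lie in the lowest tertile of level, where the SD of a ratio is 0.35. TOP1 read 4341.5 on the SOX17 array and 5812.4 on the empty vector array (-0.42, and -0.66 on its other probe set).

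Of 18 other nucleotide supply enzymes 11 were above 0 (median 0.05) and 0 passed 1.5-fold on the brightest probe set. Several of the 11 had another measured probe set below 0, down to -0.70. PPAT, which starts purine synthesis, read 763.1 on the SOX17 array and 1085.6 on the empty vector array (-0.51), while its 3 probe sets ran from -0.51 to 0.36. RRM2B, the p53-inducible subunit of ribonucleotide reductase, had a ratio of -0.34, and CAD, of pyrimidine synthesis, one of 0.30. Of 10 genes of replication-coupled chromatin assembly 9 were above 0 on the brightest probe set (median 0.08), where 54.6% of all measured genes were. Several of the 9 had another measured probe set below 0, down to -0.67. The histone chaperone ASF1B read 517.9 on the SOX17 array and 311.1 on the empty vector array (0.74). It was the 1 gene of that list past 1.5-fold on the brightest probe set, against 3.78% of all measured genes that were higher by as much. ASF1B rests on 1 measured probe set, in the lowest tertile of level, where the SD of a ratio is 0.35. CHAF1B, of the assembly factor CAF-1, had 0.30, and ASF1A 0.29, with probe sets from -0.45 to 0.29.

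On the brightest probe sets the E2F and G1/S regulators leaned the other way from the replication genes. The list holds both activators and inhibitors of E2F transcription, so this lean has no single functional direction. Of 20 measured genes 6 were above 0 and 14 below, with a median log2 ratio of -0.16, against 0.10 for the machinery and 0.03 for all genes, and 0 passed 1.5-fold. FBXO5, an inhibitor of the anaphase promoting complex, read 2245.8 on the SOX17 array and 3106.3 on the empty vector array (-0.47, and -0.41 on its other probe set). E2F3, an activating E2F factor, read 1524.5 on the SOX17 array and 2092.6 on the empty vector array (-0.46), but its other probe set gave 0.24. MYBL2, a transcription factor of the S and G2 phases, read 982 on the SOX17 array and 1332.6 on the empty vector array (-0.44). Some other genes of this list counted below 0 also had a measured probe set above 0. Further measured probe sets of the list reached 0.68 and -0.70, both past 1.5-fold. The difference between the lists was not tested, since there is 1 array per group and the lists were chosen with earlier results known.

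**Figure D4:**
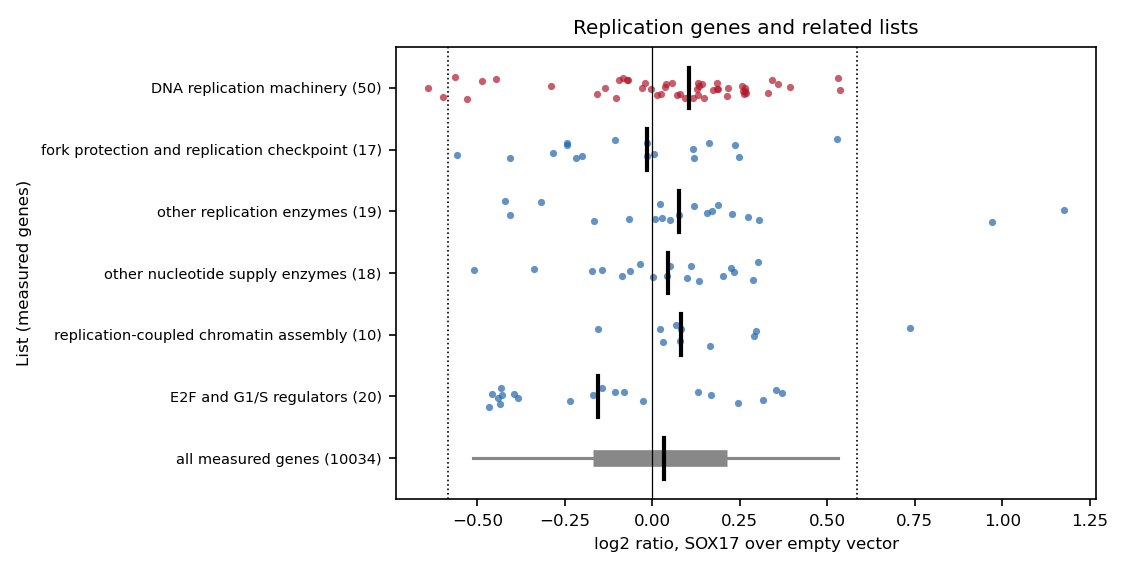
The log2 ratio (SOX17 over empty vector) for each measured gene (points) of the DNA replication machinery (red) and 5 related lists (blue), with the list's median as a black bar and dotted lines at 1.5-fold. The grey bar for all 10034 measured genes spans the interquartile range and its thin line runs from the 5th to the 95th percentile; the medians are 0.10 for the machinery, -0.16 for the E2F and G1/S regulators and 0.03 for all genes.

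The ratios at the edges of the machinery were set out under each processing. LIG1 lay between -0.65 and -0.64 under all 8 alternatives. RFC2 lay at 0.53 as deposited, at 0.29 as the mean over probe sets and at 0.06 once _x_at and _s_at probe sets were dropped. RFC1 lay at -0.60 as deposited and at -0.37 as the mean over probe sets.

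**Figure D5:**
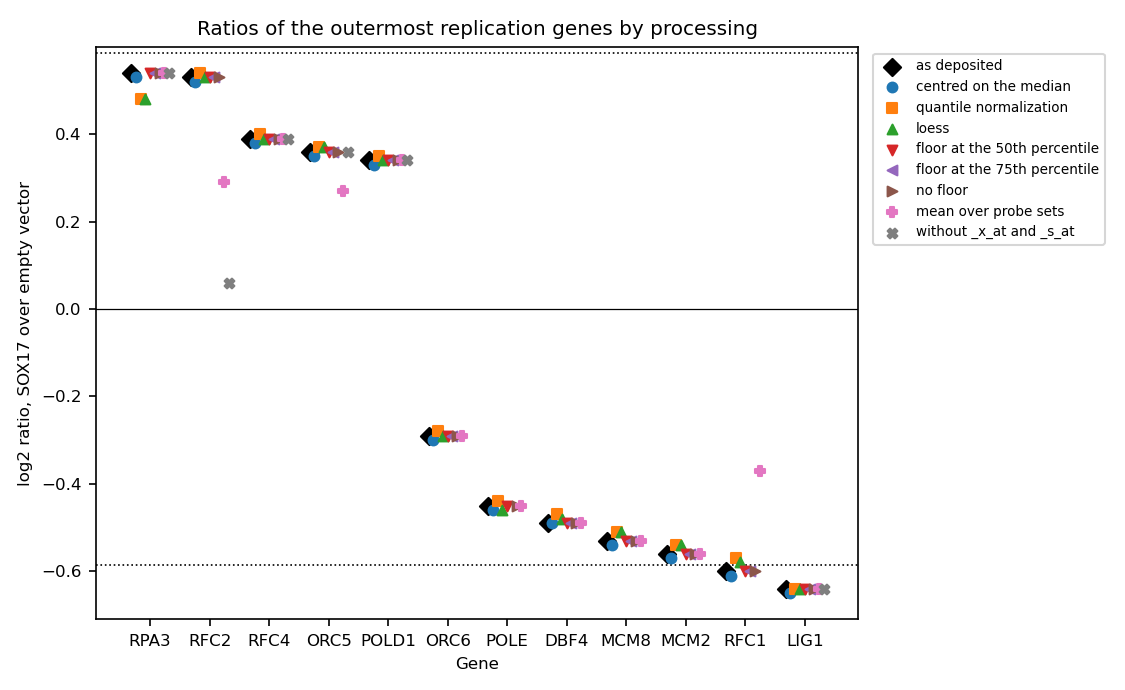
The log2 ratio (SOX17 over empty vector) for the 5 highest and 7 lowest replication genes, with the values as deposited (black diamonds) and under 8 other settings of scaling, floor and probe sets, and dotted lines at 1.5-fold. A symbol is missing where a setting leaves the gene without a measured probe set; RFC2, RFC1 and ORC5 are the genes whose value moves most, each with the choice of probe sets.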

How the data were processed

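The authors deposited a table with a linear intensity for each probe set on each array. GCOS is the tool named, per the submitters' processing notes, and its algorithm, settings and calls of presence are not given in the sources used here. With 2% of values trimmed at each end, the mean was 500.1 on both arrays, which points to a common scaling target, and no further scaling was applied. GEO's platform annotation paired 41091 of 54675 probe sets with 1 gene, and 0 symbols needed an update from RefSeq.

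The floor was an intensity of 95, the 60th percentile of both arrays pooled. The brightest probe set by mean log2 value stood for its gene. Genes were called by size alone, at 1.5-fold, since 1 array per group allows no test. Precision is limited by having so few arrays. The SD of 1 log2 ratio was the root mean square difference between the 2 brightest measured probe sets of a gene, over the square root of 2, by tertile of level.

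All members may be named, and from each related list the 3 measured genes with the largest absolute ratio. The E2F sites printed were chosen after the values and sequences were seen, and the members and lists with earlier results of these data known. Alternatives were loess (span 0.4), quantile normalization, median centring of the ratios, other floors (50th percentile, 75th percentile, none), averaging a gene's probe sets, dropping _x_at and _s_at IDs, and thresholds of 2-fold and of 0.32 in log2. Python 3.11.15 was used with numpy 2.4.6, pandas 2.3.3, statsmodels 0.14.6 and matplotlib 3.10.9, and the scripts were tested on simulated data.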

Additional observations from a re-analysis of the deposited data

Results flagged for a closer look

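A further probe set of POLD3, a subunit of polymerase delta, which was not measured on both arrays and gave no ratio above, read 126.8 on the SOX17 array and 21.6 on the empty vector array. It was set aside for a closer look because it passed the floor of 95 on the SOX17 array and not on the empty vector array. The measured probe set of POLD3 had a log2 ratio of 0.22. A further probe set of MCM6 met the same condition, with 96.8 on the SOX17 array and 92 on the empty vector array, close to the floor on both. The reverse, passing the floor on the empty vector array only, held for 2 member probe sets. That of POLA2 read 94.6 on the SOX17 array and 102.8 on the empty vector array. That of POLE4 read 80.2 on the SOX17 array and 101.7 on the empty vector array.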

How the results depend on the processing

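The median log2 ratio of the members stayed between 0.09 and 0.12 under the 8 settings of scaling, floor and probe sets. Of the 50 members, 48 were measured under the 75th percentile floor and 35 after _x_at and _s_at probe sets were dropped. The count of members lower by 1.5-fold or more (2) was 1 after quantile normalization, after loess, with the mean over probe sets and without _x_at and _s_at probe sets. At a log2 ratio of 0.32, 6 members were higher and 6 lower, and at 2-fold 0 were lower. Of the ratios of single members under the 8 settings, 379 moved by less than the SD of 1 ratio and 4 by more, those of RFC2 (0.29 and 0.06), TOP2A (-0.26) and ORC4 (0.37), each with the choice of probe sets. Over all measured genes, 379 were higher by 1.5-fold or more. This count was 670 with the 50th percentile as floor, 108 with the 75th and 4238 with none. The 320 genes lower by that much were 135 with the 75th percentile as floor and 2880 with none. At a log2 ratio of 0.32, 1506 genes were higher and 1308 lower, and at 2-fold 42 were higher and 33 lower. No paired analysis was possible because each group has 1 array. Without replicates, neither the spread between cultures nor a p-value can be given.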
